A study of Mus musculus with 136 samples.

Results

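The genes described here are 165 mouse zinc finger genes whose body overlapped H3K9me3, a histone mark of silenced chromatin, in wild-type (WT) embryonic stem cells. They were chosen as protein-coding genes of chromosomes 1 to 19 with a symbol made of Zfp and digits, Zfp42 and Zfp503 left out, whose gene body shared at least 1 bp with a region of the WT H3K9me3 list of the original experiment. The rule took 165 of 358 such Zfp genes, and there were 20665 protein-coding genes in all. The other 193 Zfp genes served for comparison, as did the 5904 genes of other names that the same H3K9me3 list touched. The genes were thus chosen by their values in the original H3K9me3 list, which is described here without a test.

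The measurements are ChIP-seq, which locates a protein or histone mark along the genome, in E14JU cells, an untreated male mouse embryonic stem cell line of 129/Ola background grown in serum and leukaemia inhibitory factor. MCM2-2A clones 439 and 442 are mutated where MCM2 binds histones. MCM2 is a subunit of the replicative helicase and passes parental histones on to new DNA. WT clone 410 is their control. SUZ12, which Polycomb repressive complex 2 (PRC2) needs for its activity, had a peak list for MCM2-2A clone 439, MCM2-2A clone 442 and WT clone 410, each made from 3 replicates of crosslinked chromatin. H3K9me3, H3K27me3 and H3K4me3 had a list from WT clone 410 in a rescue experiment (3 replicates each) and in an original experiment (2 replicates each), and H3K27ac had an original WT list (2 replicates), all by native ChIP. MCM2-2A was thus represented by 2 clones and WT by 1, and the rescue lists used here also came from WT cells. Each of the 10 lists combined its replicates, so it gives 1 value per gene with no spread between replicates and no read depth. Shares carry 95% Wilson intervals, which cover counting error over genes only, and no p-value is given.

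The lists differed in extent. H3K9me3 covered 464.6 Mb in the rescue list and 199.5 Mb in the original list, and H3K27me3 covered 930.2 Mb in the rescue list and 362.9 Mb in the original list. SUZ12 had 7571 peaks in clone 439, 7840 in clone 442 and 6298 in WT. As a check of the cell type, H3K27ac lay at an end of 7 of 7 embryonic stem cell markers (among them Pou5f1, Sox2 and Nanog) and of 4 of 12 markers of other cell types, against 58.9% of all genes. Original H3K4me3 did not separate these markers. It lay at an end of 6 of 7 and 12 of 12, against 76.1% of all genes.

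Most Zfp genes encode proteins with arrays of C2H2 zinc fingers, each finger reading a few bases of DNA. Many of these proteins also carry a KRAB domain, which recruits TRIM28 and through it SETDB1, the enzyme that writes H3K9me3 at endogenous retroviruses and other targets. Many of the genes arose by tandem duplication and stand in clusters. In several cell types the zinc finger exons at the 3′ end of such genes are themselves a known site of H3K9me3. H3K4me3 and H3K27ac mark active promoters, and H3K27me3 is the mark written by PRC2.

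Promoter sequences (250 bases before to 50 after a start site, RefSeq, GRCm38.p6, which has the coordinates of mm10) were given for 136 of the 165 genes. Members of the largest cluster, on chromosome 4, shared part of their promoters. A stretch of 28 bases was shared by 7 of its 12 genes with a promoter (Zfp534, Zfp600, Zfp980, Zfp982, Zfp985, Zfp987 and Zfp988), and only Rex2 also held it among all 16457 genes with a promoter. Copies from 4 of these genes are shown because their H3K9me3 differed, as described further on. Capitals mark the shared stretch.
Zfp980 (chr4:145670447-145670746, plus strand): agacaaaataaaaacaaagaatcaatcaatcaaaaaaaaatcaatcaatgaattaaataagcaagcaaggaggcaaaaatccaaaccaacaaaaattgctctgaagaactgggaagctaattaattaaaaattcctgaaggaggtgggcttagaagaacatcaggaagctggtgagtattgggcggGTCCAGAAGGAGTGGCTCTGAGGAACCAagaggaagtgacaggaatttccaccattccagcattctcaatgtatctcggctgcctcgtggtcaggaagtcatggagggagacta
Zfp600 (chr4:146156577-146156876, plus strand, the first of its start sites): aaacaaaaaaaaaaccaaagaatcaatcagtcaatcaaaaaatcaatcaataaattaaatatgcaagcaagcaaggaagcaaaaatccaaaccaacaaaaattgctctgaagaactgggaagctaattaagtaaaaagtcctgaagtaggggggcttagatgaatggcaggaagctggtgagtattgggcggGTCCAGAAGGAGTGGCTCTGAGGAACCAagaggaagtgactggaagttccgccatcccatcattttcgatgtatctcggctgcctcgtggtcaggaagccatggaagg
Zfp985 (chr4:147553027-147553326, plus strand): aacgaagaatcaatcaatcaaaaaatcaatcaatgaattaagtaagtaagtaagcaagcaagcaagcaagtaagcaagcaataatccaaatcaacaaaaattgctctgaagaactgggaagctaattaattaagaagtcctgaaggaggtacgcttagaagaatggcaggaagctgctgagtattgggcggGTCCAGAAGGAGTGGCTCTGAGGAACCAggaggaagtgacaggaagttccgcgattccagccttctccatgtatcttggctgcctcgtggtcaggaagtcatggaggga
Zfp534 (chr4:147702582-147702881, minus strand): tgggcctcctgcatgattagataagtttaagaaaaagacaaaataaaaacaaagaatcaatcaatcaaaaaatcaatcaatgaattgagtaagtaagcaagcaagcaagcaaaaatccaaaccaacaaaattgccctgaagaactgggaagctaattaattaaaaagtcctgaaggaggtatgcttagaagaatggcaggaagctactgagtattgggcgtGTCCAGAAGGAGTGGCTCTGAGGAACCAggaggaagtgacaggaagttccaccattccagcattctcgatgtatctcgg

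Shared stretches were shorter elsewhere. In the chromosome 13 cluster 6 of 11 genes with a promoter shared 17 bases, and in the chromosome 7 cluster from Zfp30 to Zfp146 it was 17 bases in 4 of 8. The longest run common to both stretches was TGGGAAATGTAGT, so these letters were then counted on both strands of every promoter. They were found in 17 of 136 covered Zfp genes (12.5%), in 11 of 163 other Zfp genes (6.75%) and in 116 of all 16457 genes (0.705%). The letters came from these promoters, so the first share is partly fixed by that choice. The promoters of Zfp457, Zfp712 and Zfp260 show the run in both clusters, and those of Zfp809 and Zfp445 belong to genes with known targets. Capitals mark this run and the other searched motifs where a promoter has them.
Zfp457 (chr13:67306363-67306662, minus strand): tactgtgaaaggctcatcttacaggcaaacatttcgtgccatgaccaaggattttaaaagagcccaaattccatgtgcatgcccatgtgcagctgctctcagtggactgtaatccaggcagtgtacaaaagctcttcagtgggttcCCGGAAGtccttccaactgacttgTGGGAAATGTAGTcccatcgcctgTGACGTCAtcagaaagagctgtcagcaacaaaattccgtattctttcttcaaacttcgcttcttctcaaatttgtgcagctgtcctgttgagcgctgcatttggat
Zfp712 (chr13:67061121-67061420, minus strand): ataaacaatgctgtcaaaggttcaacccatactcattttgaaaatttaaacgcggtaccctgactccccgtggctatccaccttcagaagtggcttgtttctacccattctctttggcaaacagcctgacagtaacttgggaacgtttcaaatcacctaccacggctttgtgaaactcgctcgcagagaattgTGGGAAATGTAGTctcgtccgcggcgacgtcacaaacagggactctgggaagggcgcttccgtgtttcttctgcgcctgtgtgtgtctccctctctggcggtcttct
Zfp260 (chr7:30094826-30095125, plus strand): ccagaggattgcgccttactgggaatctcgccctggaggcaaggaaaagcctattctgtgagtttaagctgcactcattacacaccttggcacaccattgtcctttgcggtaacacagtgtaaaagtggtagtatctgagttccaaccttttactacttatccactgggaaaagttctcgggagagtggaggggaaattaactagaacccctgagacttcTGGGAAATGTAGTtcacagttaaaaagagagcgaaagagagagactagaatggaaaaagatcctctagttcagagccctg
Zfp809 (chr9:22225453-22225752, plus strand, the first of its start sites): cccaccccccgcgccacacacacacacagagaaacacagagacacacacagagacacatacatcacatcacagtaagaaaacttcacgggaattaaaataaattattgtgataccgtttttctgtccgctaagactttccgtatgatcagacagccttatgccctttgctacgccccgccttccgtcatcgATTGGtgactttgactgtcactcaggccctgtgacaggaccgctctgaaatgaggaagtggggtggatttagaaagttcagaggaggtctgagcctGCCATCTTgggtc
Zfp445 (chr9:122865957-122866256, minus strand): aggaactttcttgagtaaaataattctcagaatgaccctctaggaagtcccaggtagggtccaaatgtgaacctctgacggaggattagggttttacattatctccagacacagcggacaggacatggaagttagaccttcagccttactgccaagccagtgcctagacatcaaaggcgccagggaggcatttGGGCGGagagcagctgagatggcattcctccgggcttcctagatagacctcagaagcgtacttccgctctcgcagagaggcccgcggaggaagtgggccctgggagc

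There were 11 motifs searched on both strands. CCGGAAG was held by 26.5% of covered Zfp genes with a promoter, 22.1% of other Zfp genes and 13.3% of all genes. CCAAT stood at 48.5%, 55.8% and 42.3% in these sets, GGGCGG at 44.9%, 47.9% and 50.3%, and TATAAA at 7.35%, 8.59% and 15.0%. GCGCATGCGC was taken from the stretch shared by 3 of the 6 promoters of the chromosome 7 cluster from Zfp788 to Zfp719. It was held by 5.88% of covered Zfp genes, 1.84% of other Zfp genes and 1.49% of all genes. Because the letters came from these promoters, the first of these shares is partly fixed by that choice. The other motifs were CACGTG (9.56% of covered Zfp genes, 6.75% of other Zfp genes and 9.01% of all genes), TGACGTCA (5.15%, 2.45% and 2.63%) and AAGATGGC (4.41%, 7.36% and 3.59%). A core of the ZNF143 site stood at 1.47%, 4.29% and 0.498%, and the BANP palindrome at 0%, 0.613% and 0.753%. No searched motif is contained in another on either strand. The run common to both cluster stretches above, read on its other strand, differs from the ZNF143 core by a single base. That run stood at 12.5% of covered Zfp genes, 6.75% of other Zfp genes and 0.705% of all genes. The low shares of the exact core therefore do not show that similar letters were rare in these promoters. The median promoter had 11.5 CpG dinucleotides and 54.0% G and C in covered Zfp genes, against 16 and 55.3% in other Zfp genes and 14 and 56.7% in all genes. Both Zfp groups had TATAAA less often than all genes, and they differed from each other in the number of CpG dinucleotides. A match of letters is a description and no evidence of binding.

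H3K9me3 over these genes was found again in the rescue experiment. A rescue region touched the body of 152 of 165 covered Zfp genes (92.1%, interval 87.0 to 95.3), against 87 of 193 other Zfp genes (45.1%, 38.2 to 52.1) and 50.1% of all genes. This count is not particular to Zfp genes, because genes of other names under original H3K9me3 had rescue H3K9me3 in 97.1% of cases (96.6 to 97.5). What stood apart was the extent. The median share of the gene body under rescue H3K9me3 was 25.7% in covered Zfp genes, 10.9% in genes of other names under original H3K9me3 and 0% in other Zfp genes. At least 50% of the body lay under rescue H3K9me3 in 48 covered Zfp genes (29.1%), in 7.67% of the genes of other names, in 22 other Zfp genes (11.4%) and in 4.89% of all genes. The rescue list was more than double the original in covered length, so the count was repeated on its 14382 strongest regions, which cover as much as the original list. Such a region touched 83 covered Zfp genes (50.3%, 42.8 to 57.8), 44.3% of the genes of other names (43 to 45.5) and 12.4% of other Zfp genes, and the median body share of covered Zfp genes was 0.145%. At least 50% of the body lay under these strongest regions in 40 covered Zfp genes (24.2%), in 4.81% of the genes of other names and in 8.29% of other Zfp genes.

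Gene length differed between these sets, with medians of 23.4 kb, 62.0 kb and 13.6 kb for covered Zfp genes, covered genes of other names and other Zfp genes. Among genes of 10 to 50 kb the median share under rescue H3K9me3 was 31.8% in 129 covered Zfp genes and 12.8% in 2075 covered genes of other names. The difference in extent was therefore present at similar lengths too. In the original list, by which they were chosen, the median share was 22.2% in covered Zfp genes. That list touched 29.4% of all genes.

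The mark lay toward the 3′ end. Of 136 covered Zfp genes whose strand is known, 108 (79.4%, 71.9 to 85.4) had rescue H3K9me3 in the last 5 of 20 equal bins of the gene body, and 61 (44.9%, 36.8 to 53.2) had it in the first 5. The mark was in both stretches of 50 genes. The share of genes with the mark was 19.1% in the first bin, 64.7% in bin 19 and 55.9% in bin 20. Genes of other names under original H3K9me3 differed less between the ends, with 26.1% in the first bin, 36.3% in bin 19 and 35.5% in bin 20. Other Zfp genes had 9.2%, 22.1% and 22.7% in these bins, and all genes had 12.9%, 16.5% and 16.3%. Among genes of 10 to 50 kb the last 5 bins held the mark in 80.9% of covered Zfp genes and 55.5% of covered genes of other names, and the first 5 bins in 44.3% and 46%. At these lengths the covered genes of other names also had the mark more often in the last bin (29.6%) than in the first (18%), a smaller difference than in covered Zfp genes (58.3% and 19.1%).

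**Figure D1:**
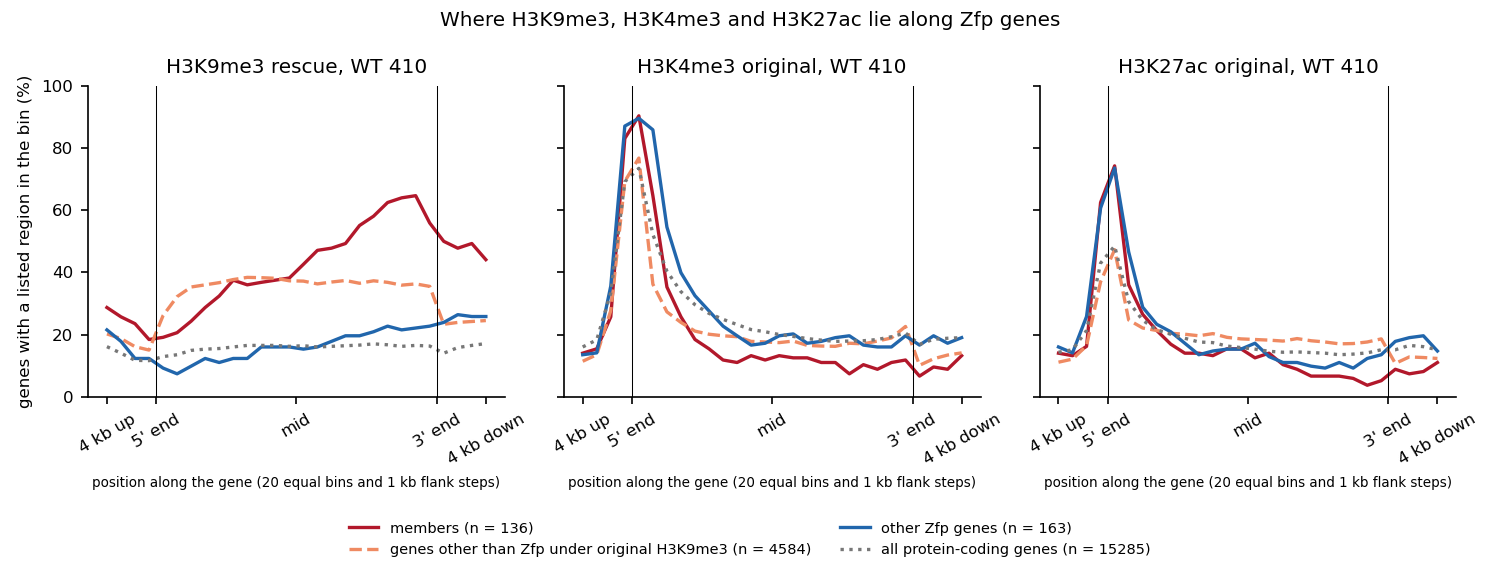
Share of genes (y axis, percent) with a region of the WT rescue H3K9me3, original H3K4me3 or original H3K27ac list in each of 20 equal bins of the gene body and in 1 kb steps of the flanks (x axis, 5′ to 3′, vertical lines at the gene ends), for covered Zfp genes (red), covered genes of other names (dashed orange), other Zfp genes (blue) and all genes (dotted grey). Rescue H3K9me3 over covered Zfp genes was at 19.1% of genes in the first bin and at 64.7% in bin 19, and H3K4me3 and H3K27ac peaked in the first bin, at 90.4% and 74.3%.

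The 5′ end carried the active marks instead. H3K4me3 of the original list lay in the first bin of 90.4% of covered Zfp genes and in the last bin of 11.8%, and H3K27ac in 74.3% and 5.15%. Other Zfp genes had H3K4me3 in the first and last bin in 89.6% and 19.6% of cases and H3K27ac in 73.6% and 13.5%, and all genes had 73.5% and 20.5% for H3K4me3 and 48.5% and 15.1% for H3K27ac. The first-bin shares of covered Zfp genes were thus close to those of other Zfp genes. The gene start itself lay inside rescue H3K9me3 in 20 of 136 covered Zfp genes (14.7%), and the gene end in 62 (45.6%). Starts and ends lay inside it in 12.1% and 19.4% of covered genes of other names, 6.75% and 19.6% of other Zfp genes, and 7.99% and 10.3% of all genes. For the strongest original H3K4me3 peak at the ends of a gene, the median distance to the nearest rescue H3K9me3 region was 2.8 kb. Of 155 such peaks 25 (16.1%, 11.2 to 22.7) overlapped rescue H3K9me3 and another 74 lay within 5 kb of it. In the other Zfp genes 29 of 182 such peaks (15.9%, 11.3 to 21.9) overlapped it.

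Active marks stood at similar shares of these genes and of the other Zfp genes. A peak within 2500 bp of either gene end is called here a peak at a gene end. Original H3K4me3 stood at an end of 155 covered Zfp genes (93.9%, 89.2 to 96.7), against 94.3% of other Zfp genes and 76.1% of all genes. The rescue list gave 156 covered Zfp genes (94.5%), 95.3% of other Zfp genes and 77.6% of all genes. H3K27ac stood at an end of 134 (81.2%, 74.6 to 86.4), against 85.5% of other Zfp genes and 58.9% of all genes. Both marks of the original experiment were at an end of 133 covered Zfp genes (80.6%), 84.5% of other Zfp genes and 57.1% of all genes. The intervals of covered and other Zfp genes overlap for each of these marks. The median fold enrichment over background of the strongest end peak was 85.8 for H3K4me3 and 11.4 for H3K27ac in covered Zfp genes, and 92.6 and 11.8 in other Zfp genes.

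The strongest H3K4me3 end peaks were at Zfp994 (fold enrichment 159.1 in the rescue list and 173.3 in the original), Zfp975 (131.7 and 155.3), Zfp930 (132.5 and 150.4), Zfp760 (78.12 and 130.2) and Zfp81 (67.12 and 129.1). Several of these genes were also deep under H3K9me3, with 93.15% of the body of Zfp975, 89.03% of Zfp930, 81.17% of Zfp81 and 61.9% of Zfp994 under rescue regions, against 20.59% of Zfp760. For H3K27ac the strongest end peaks were at Zfp524 (57.61), Zfp13 (40.51), Zfp532 (40.14), Zfp146 (34.5) and Zfp260 (33.42), whose bodies were 12.74% (Zfp532) to 59.9% (Zfp146) under rescue H3K9me3.

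No H3K4me3 peak of either list was at an end of 9 covered Zfp genes, Zfp558, Zfp595, Zfp616, Zfp735, Zfp759, Zfp790, Zfp791, Zfp936 and Zfp992. RefSeq places the outer end of some genes far from a listed start site, by over 2500 bp for every start of 18 of the 136 genes with a promoter. Of the 9 genes 8 had a listed promoter, and in 6 of them that promoter did hold original H3K4me3. Zfp616 and Zfp735, both on chromosome 11, were the exceptions, with promoters under rescue H3K9me3 and with neither H3K4me3 nor H3K27ac. Altogether 17 covered Zfp genes had a promoter under rescue H3K9me3 (12.5%, against 12.3% of other Zfp genes and 10.1% of all genes), and 15 of these 17 also had original H3K4me3 there and 12 had H3K27ac.

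Members just inside the rule were Zfp653 (91 bp under original H3K9me3), Zfp251 (171 bp), Zfp397 (392 bp), Zfp287 (411 bp) and Zfp534 (437 bp), and of these Zfp397 and Zfp287 had rescue H3K9me3 too. Just outside were Zfp414, at 2 bp from an original region, Zfp707 (193 bp), Zfp771 (566 bp), Zfp459 (583 bp) and Zfp957 (605 bp). Zfp459 had 15660 bp and Zfp957 822 bp under rescue H3K9me3.

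Between the experiments, the share of the body under H3K9me3 was higher in the rescue list for 101 covered Zfp genes, lower for 59 and equal for 5, and within 10 percentage points for 123 of 165. Across the 165 genes Spearman's rho was 0.759 and Pearson's r was 0.752, given as a description of 2 lists of the same clone. In 6 genes the rescue share was higher by over 50 points and in 4 it was lower by over 50 points. Such genes gathered in the chromosome 4 cluster. Zfp980 had 100% under rescue and 6.959% under original H3K9me3, Zfp600 95.1% and 30.49%, Zfp987 68.22% and 9.214%, and Zfp988 68.29% and 12.57%. Zfp982 and Zfp985 went the other way, with 0% under rescue and 96.93% and 86.1% under original H3K9me3. Away from chromosome 4 the widest gaps were at Zfp640 (100% rescue, 23.24% original), Zfp735 (74.84% and 19.57%), Zfp110 (0% and 89.33%) and Zfp629 (0% and 100%).

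**Figure D2:**
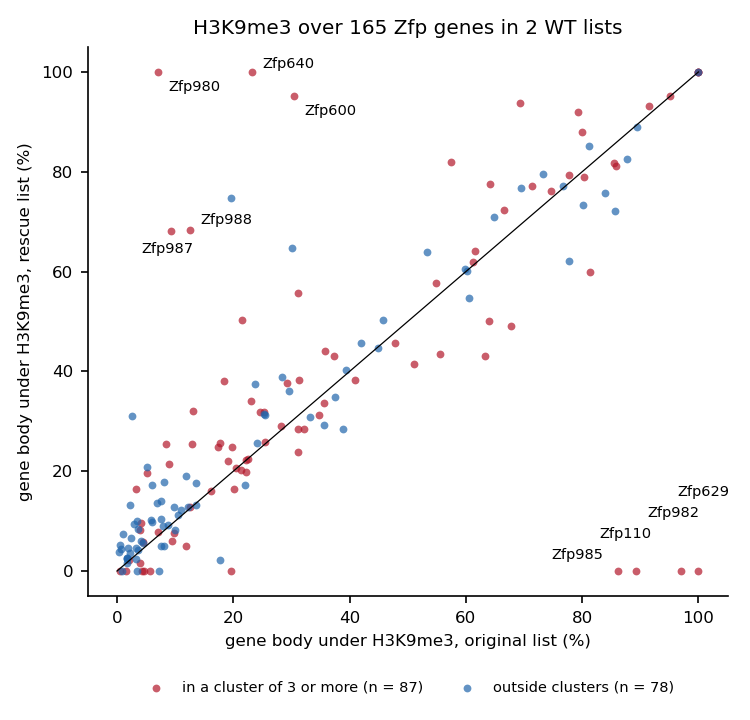
Percent of the gene body under H3K9me3 in the WT rescue list (y axis) and in the WT original list (x axis), 1 point per covered Zfp gene, red in clusters of 3 or more and blue outside, with the line of equality. Most points lie near the line (123 of 165 within 10 points), and the named genes are far from it.

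The 13 covered Zfp genes without rescue H3K9me3 were Zfp54, Zfp59, Zfp110, Zfp251, Zfp316, Zfp382, Zfp426, Zfp534, Zfp629, Zfp653, Zfp960, Zfp982 and Zfp985. In 9 of them the original overlap was itself slight, from 0.5693% of the body (Zfp653) to 19.64% (Zfp59). Zfp982 and Zfp985 shared a single original region of 114.1 kb (chr4:147445350-147559470), at percentile 99.97 of that list's strength values, and the nearest rescue region was 77.826 kb from Zfp982 and 8.689 kb from Zfp985. Zfp629 lay whole inside an original region of 12.69 kb and was 28.765 kb from rescue H3K9me3.

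By position, members were joined wherever the gap to the next was at most 1 Mb. Other Zfp genes were left out of the joining, so the clusters depend on the original H3K9me3 list that chose the members. A member outside clusters can therefore stand among other Zfp genes, as Zfp398 does beside Zfp786 and Zfp282. The comparisons of members in and outside clusters are a description of this split. This gave 13 clusters of 3 or more with 87 genes, 13 pairs with 26 genes, and 52 single genes. Chromosome 7 held 39 covered Zfp genes of its 90 Zfp genes, chromosome 17 held 21 of 41, chromosome 4 held 20 of 27, chromosome 13 held 16 of 32 and chromosome 9 held 13 of 19. Clustered genes had a median of 31.9% of the body under rescue H3K9me3, against 15.6% outside clusters, at median lengths of 22.6 kb and 25.8 kb. H3K27ac was at an end of 88.5% (80.1 to 93.6) of clustered genes and 73.1% (62.3 to 81.7) of those outside, against 58.9% of all genes. SUZ12 went the other way. It was at an end of 6.9% of clustered and 23.1% of other members in clone 439, 5.75% and 30.8% in clone 442, and 4.6% and 17.9% in WT. All genes had SUZ12 at an end in 24.9%, 26.5% and 21.4% of cases in these lists. Members outside clusters were thus near the share over all genes, and clustered members were below it.

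**Figure D3:**
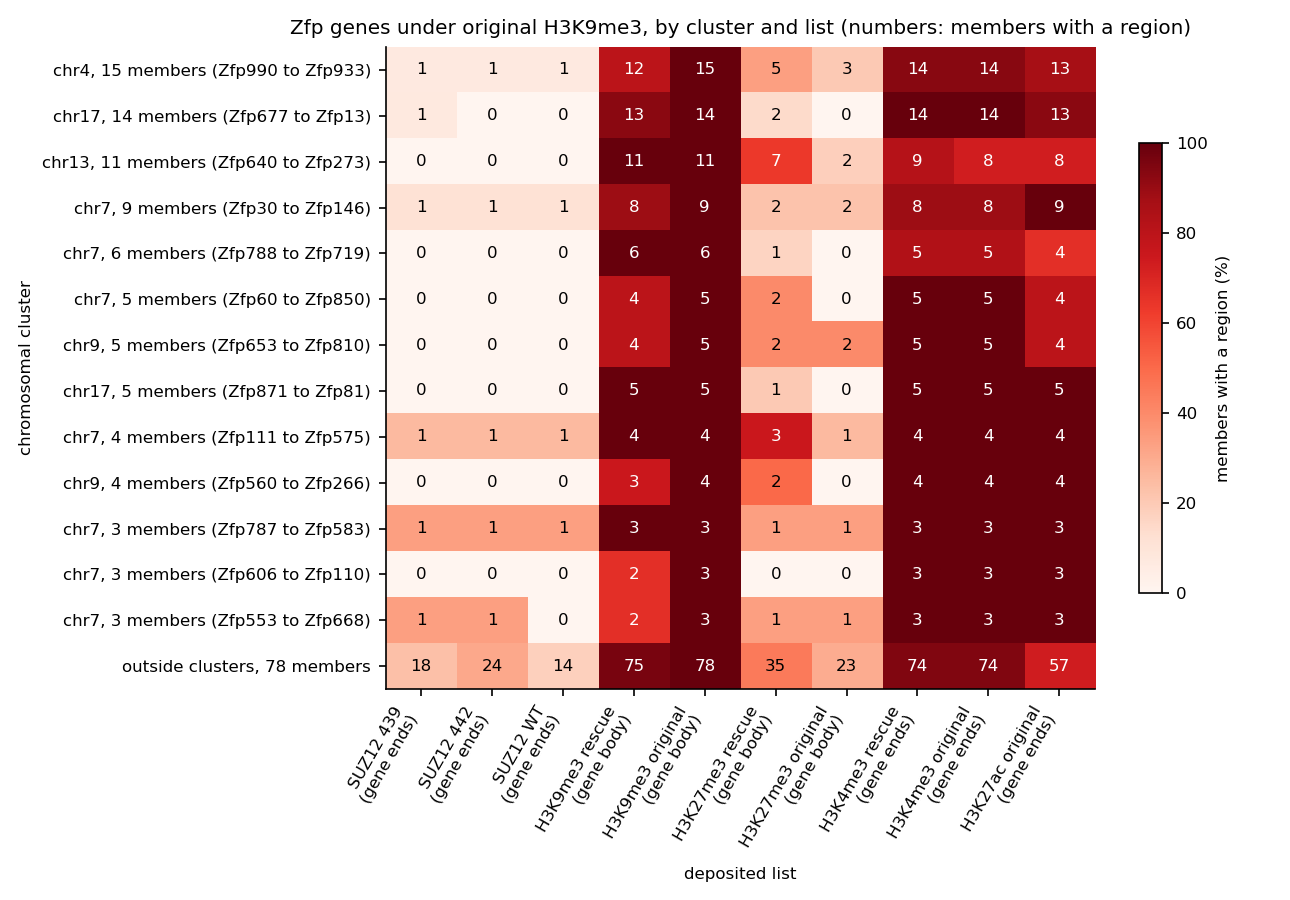
Number of covered Zfp genes with a region of each of the 10 lists (columns) in each cluster of 3 or more and outside clusters (rows, named by their outermost members), shaded by the percent of the row's members, with SUZ12, H3K4me3 and H3K27ac taken at gene ends and H3K9me3 and H3K27me3 over the gene body. H3K9me3 and H3K4me3 were found in most members of every row. In 7 of the 13 clusters no member had SUZ12 at an end in any of the 3 clones, although some of these spans held SUZ12 peaks elsewhere.

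The chromosome 4 cluster (chr4:145510759-147849126, 2.34 Mb) had 15 members, and only Zfp991 among the Zfp genes in its span was outside the rule. Rescue H3K9me3 touched 12 of the 15 and the median body share was 68.2%, close to that of the chromosome 7 cluster from Zfp788 to Zfp719 (68.5%) and below that of the chromosome 9 cluster from Zfp653 to Zfp810 (78.9%). From its start, Zfp990 had 77.12% of the body under rescue and 71.41% under original H3K9me3, with end peaks of 41.56 for original H3K4me3 and 7.964 for H3K27ac. Zfp980 and Zfp600, whose promoters are shown above, were the deepest under rescue H3K9me3 beside Zfp992. Their original H3K4me3 end peaks had fold enrichments of 85.8 and 30.17 and their H3K27ac end peaks 10.14 and 4.331. The printed start of Zfp600 held neither mark, and its other start held both.

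Zfp992 was the gene of this cluster under H3K9me3 for 100% of its body in both lists, and it had no H3K4me3 or H3K27ac at its ends. Inside its body lay 191 bp of rescue H3K4me3 and 343 bp of H3K27ac, and no promoter was listed for it. A rescue H3K9me3 region of 77.67 kb and an original one of 77.38 kb ran from Zfp992 into Zfp981. Zfp981 had 76.07% and 74.63% of its body covered in the rescue and original lists, an H3K4me3 end peak of 53.84 and an H3K27ac end peak of 16.7. Zfp993 had 12.82% and 12.63% covered over an annotated length of 479 kb that overlaps Zfp981, and Zfp978 had 22% and 19.15% over 267 kb that overlap Zfp988. The last 7 genes, from Zfp988 on, varied. Zfp988 had 68.29% under rescue H3K9me3, Zfp982, Zfp985 and Zfp534 had none, Zfp979 had 38.37%, Zfp984 had 93.82% and Zfp933 had 31.89%. H3K4me3 end peaks of the original list were present at all 7, from 14.31 (Zfp988) to 122.1 (Zfp933), and H3K27ac end peaks at 6 of them, Zfp979 being without. H3K4me3 at an end was thus seen in genes with no rescue H3K9me3 (Zfp982) and in 1 wholly under it (Zfp980), while Zfp992, also wholly under it, had none.

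Zfp980, Zfp600, Zfp985 and Zfp534 share promoter sequence, and similarity over the rest of the genes was not measured. The sources used here do not say how reads matching several places were handled, so where such sequence is shared the gene a region belongs to is uncertain. Whether this bears on the differences between the experiments was not tested.

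**Figure D4:**
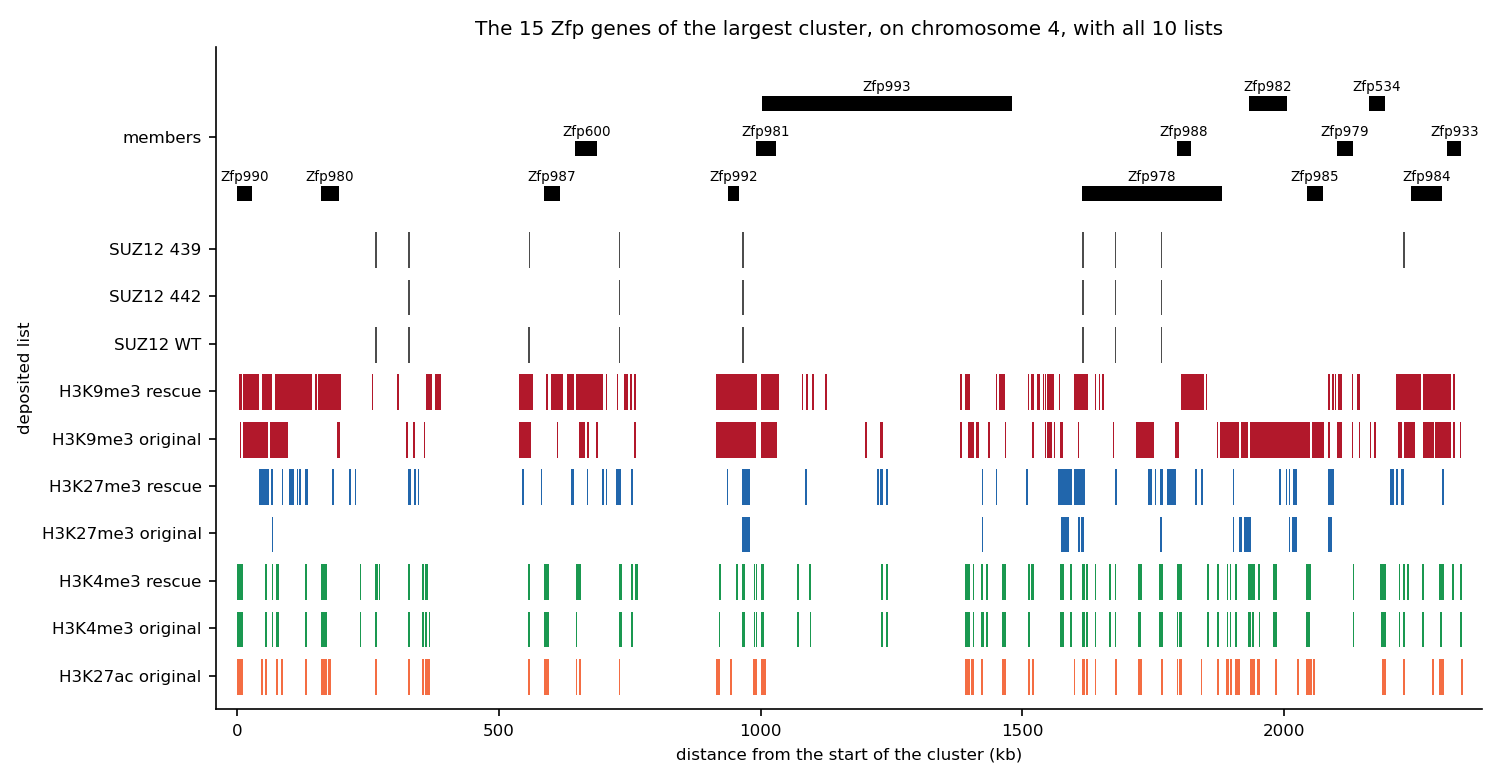
The 15 covered Zfp genes of the chromosome 4 cluster (black bars, staggered) and the regions of all 10 lists (coloured bars, 1 row per list) by distance from the cluster's start in kb (x axis), with regions narrower than 3 kb drawn 3 kb wide. H3K9me3 (red) covers Zfp990, Zfp992 and Zfp981 alike in the rescue and original rows, covers more of Zfp980, Zfp987 and Zfp600 in the rescue row, and lies over Zfp982 and Zfp985 in the original row alone, and the regions of the 2 H3K4me3 rows (green) lie mostly at the same places.

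The chromosome 17 cluster from Zfp677 to Zfp13 (2.22 Mb) had 14 members and 8 other Zfp genes in its span. Rescue H3K9me3 touched 13 of the 14 with a median body share of 25.2%, and all 14 had H3K4me3 at an end. Zfp758 was covered for 95.1% by rescue and 95.04% by original H3K9me3, Zfp994 for 61.9% and 61.3%, and Zfp945 for 43.57% and 55.47%. Zfp758 and Zfp944, a pair singled out after its values were seen, stand head to head and share the end peaks of H3K4me3 (fold enrichment 76.79 in the rescue list, 52.13 in the original) and H3K27ac (8.903), yet 20.29% of Zfp944 was under rescue H3K9me3. Neighbours with a common promoter region thus differed in H3K9me3 over their bodies.

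The chromosome 13 cluster from Zfp640 to Zfp273 (1.16 Mb) had 11 members, all 11 with rescue H3K9me3 (median 31.3% of the body), and 9 other Zfp genes. Its deepest members were Zfp640 (100% rescue, 23.24% original), Zfp273 (87.91% and 80.02%) and Zfp712 (77.52% and 64.18%). H3K27me3 of the rescue list touched 7 of the 11 and of the original list 2, where 52.3% and 35.7% of all genes were touched. Zfp708, which binds endogenous retroviral elements, had 29.02% of its body under rescue H3K9me3 and an H3K4me3 end peak of 2.954 in the rescue list alone, but 1 of its listed promoters held original H3K4me3 and H3K27ac.

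On chromosome 7, 33 members stood in 7 clusters. From Zfp30 to Zfp146 there were 9, with Zfp30 (72.41% under rescue H3K9me3, 66.64% original), Zfp146 (59.9% and 81.32%) and Zfp790 (50.25% and 21.42%) leading, and all 9 had H3K27ac at an end. From Zfp788 to Zfp719 there were 6, led by Zfp936 (100% in both lists), Zfp975 (93.15% and 91.44%) and Zfp658 (79.36% and 77.78%). From Zfp60 to Zfp850 there were 5, with a low median of 9.57%, led by Zfp850 (64.06% and 61.6%), Zfp60 (16.47% and 20.12%) and Zfp974 (9.565% and 4.081%). From Zfp111 to Zfp575 there were 4, led by Zfp575 (92.01% and 79.22%), Zfp109 (34.06% and 23.1%) and Zfp61 (24.87% and 17.36%). Among the clusters of 3, Zfp667 led with 32.14% and 13.14%, ahead of Zfp787 (22.2% in both) and Zfp583 (16.04% and 16.17%). Zfp329 led another with 41.55% and 51.14%, with Zfp606 at 33.67% and 35.56% and Zfp110 at 0% and 89.33%. Zfp553 led the last with 50.18% and 64.01%, with Zfp668 at 23.79% and 31.06% and Zfp629 at 0% and 100%. These leading genes were covered in both lists, except Zfp110 and Zfp629.

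On chromosome 9, Zfp872 was covered for 100% in both lists, Zfp809 for 81.86% by rescue and 57.36% by original H3K9me3, and Zfp599 for 78.93% and 80.33%. Zfp872 had weak H3K4me3 end peaks (13.16 rescue, 12.98 original) and no H3K27ac at its ends. The other chromosome 9 cluster was led by Zfp560 (55.7% and 31.05%), Zfp26 (25.82% and 25.37%) and Zfp266 (5.013% and 11.88%). The second chromosome 17 cluster was led by Zfp763 (81.71% and 85.4%), Zfp81 (81.17% and 85.8%) and Zfp871 (44.12% and 35.78%).

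Of 7 Zfp genes listed for a known role in silencing retroelements or keeping imprints, 4 were covered, Zfp445, Zfp568, Zfp708 and Zfp809. Zfp809 silences proviruses through their primer binding site. Its end peaks had fold enrichments of 106.2 for original H3K4me3 and 24.59 for H3K27ac. Zfp445, a keeper of imprints, had 77.12% of the body under rescue and 76.65% under original H3K9me3, an H3K4me3 end peak of 35.04, and both H3K4me3 and H3K27ac in the promoter printed above, which also lies under rescue H3K9me3. Zfp568, which represses a placental transcript of Igf2, had 8.146% and 3.905% of the body covered. Of the others, Zfp57, a keeper of imprints, had 2.404% under rescue H3K9me3, Zfp819 had none, and Zfp932 had 100% under rescue and 0% under original H3K9me3. Among 23 genes of the H3K9me3 pathway, listed for their role and not by symbol, rescue H3K9me3 touched 13 and original H3K9me3 7. These lists touched 50.1% and 29.4% of all genes, and the median rescue body share of the 23 was 0.742%. None of the 23 carries a Zfp symbol.

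H3K27me3 over the gene body was less common at covered Zfp genes than at all genes. The original list touched 35 (21.2%, 15.7 to 28.1), against 17.1% of other Zfp genes (12.4 to 23.0) and 35.7% of all genes. The rescue list touched 64 (38.8%, 31.7 to 46.4), against 30.1% of other Zfp genes and 52.3% of all genes.

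SUZ12 was compared between genotypes, to see whether PRC2 sits at other genes once old histones are no longer shared out evenly. A peak was at an end of 24 covered Zfp genes in MCM2-2A clone 439 (14.5%, 9.97 to 20.7, against 24.9% of all genes), 29 in clone 442 (17.6%, 12.5 to 24.1, against 26.5%) and 18 in WT (10.9%, 7.01 to 16.6, against 21.4%). Other Zfp genes had 18.1% in clone 439, 20.2% in clone 442 and 13.5% in WT. The intervals of the 3 clones overlap, and 2 MCM2-2A lists against 1 WT list cannot reach an exact p under 0.05. The larger counts in the MCM2-2A clones went with longer lists. With the 6298 strongest peaks of each list the counts were 19 in clone 439, 19 in clone 442 and 18 in WT.

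Any of the 3 lists had a peak at an end of 31 covered Zfp genes, against 28.5% of all genes. All 3 lists had one at 16 (9.7%, against 20.1% of all genes). Both MCM2-2A lists and not the WT list had one at 6 (3.64%, against 3.04% of all genes), Zfp287, Zfp445, Zfp612, Zfp629, Zfp638 and Zfp663, and the WT list alone at 0 (against 0.232% of all genes). Clone 442 alone had 6 (3.64%, against 2.73% of all genes) and clone 439 alone 1 (0.606%, against 1.4% of all genes). Over all genes, too, clone 442 alone had the larger share. Genes with a peak in each mutant clone but none in WT (3.64%, against 3.04%) made up a share near that over all genes.

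The strongest SUZ12 peak stood inside Zfp316 on chromosome 5, on the side of Zfp12, with fold enrichments of 59.2 in clone 439, 48.4 in clone 442 and 92.2 in WT. It reached the window of Zfp12 in clone 442 and WT and fell short of it in clone 439, at 2559 bp from the gene. Zfp536, a zinc finger gene of the nervous system, had 50.8 and 52.4 in clones 439 and 442 and 74.3 in WT. Zfp521 had 40.3 and 34.3 in the MCM2-2A clones and 43.5 in WT, and Zfp423, its close relative, 20.1 and 25.9, against 19.7 in WT. Zfp697 had 41.2 and 22.9, against 26.6 in WT, and Zfp800 had 30.5 and 22.4, against 24.1 in WT. Zfp580 had 14.9 and 16, against 7.38 in WT, Zfp608 had 15.9 and 15.3, against 13.2 in WT, and Zfp30 had 14 and 12.5, against 12.4 in WT. Zfp575 had 11.9 and 5.11, against 6.92 in WT, and Zfp787 had 11.3 and 11.8, against 10.3 in WT. Values of both MCM2-2A clones were above WT at 5 of these genes, below WT at Zfp316, Zfp536 and Zfp521, and on both sides of it at Zfp575, Zfp697 and Zfp800. Over all genes with an end peak in a list, the median was 16.6 in clone 439, 14.4 in clone 442 and 17.3 in WT. The lists thus differed in scale, and differences at single genes were not tested. Zfp978 had weak end peaks (4.86 and 4.91, against 4.96 in WT) and stronger ones inside the gene, with 20 in clone 439 and 14.6 in clone 442, against 17.4 in WT, so that the MCM2-2A clones lay on both sides of WT.

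**Figure D5:**
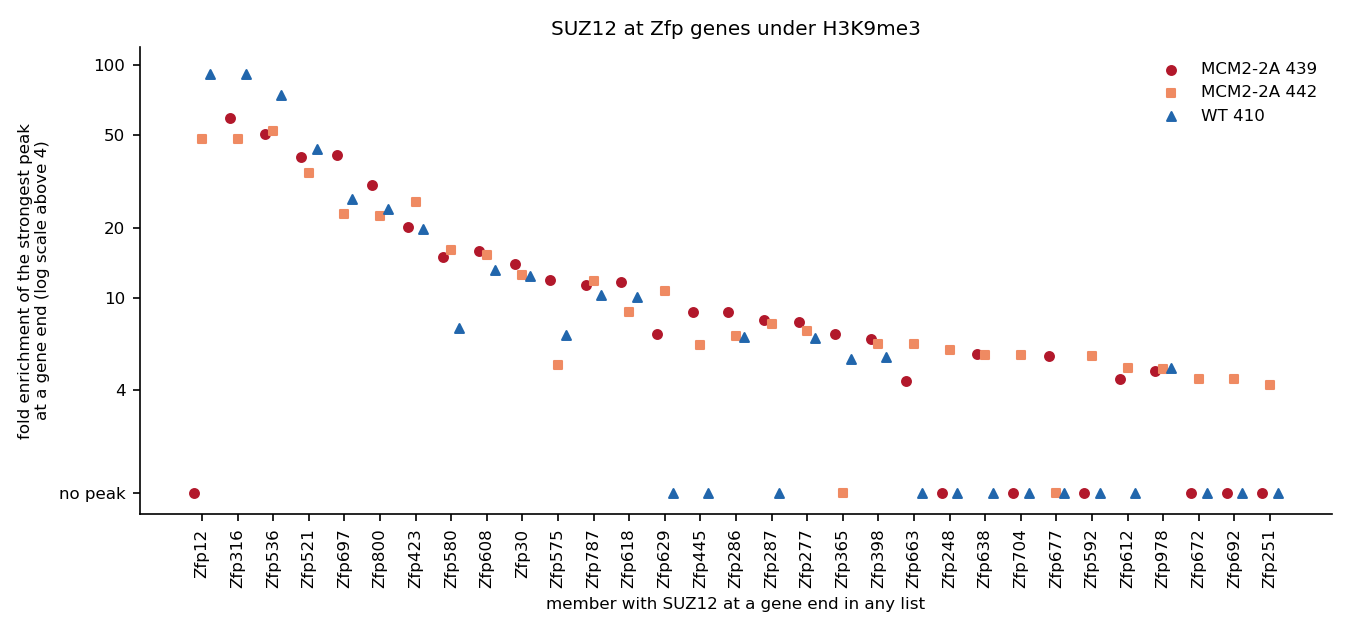
Fold enrichment of the strongest SUZ12 peak at an end (y axis, log scale above 4, with no peak at the bottom) of the 31 covered Zfp genes that had one in any list (x axis, by highest value), for MCM2-2A clones 439 (red circles) and 442 (orange squares) and WT clone 410 (blue triangles). The genes with a peak in both MCM2-2A clones and none in WT all had fold enrichments of 10.7 or less.

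At the genes with SUZ12 in the MCM2-2A lists alone the peaks were weak. Zfp629 had 6.95 in clone 439 and 10.7 in clone 442, Zfp445 had 8.72 and 6.26, Zfp287 7.98 and 7.73, Zfp638 5.74 and 5.66, Zfp663 4.37 and 6.32, and Zfp612 4.48 and 4.98, each with no WT peak. The ends of Zfp287 were 18359 bp and those of Zfp629 20985 bp from the nearest WT SUZ12 peak, and those of Zfp612 were 117413 bp from one. All 6 lay in the WT H3K27me3 rescue list, from 4.73% of the body (Zfp638) to 100% (Zfp663), and that list touched 52.3% of all genes. In the original list, which touched 35.7% of all genes, Zfp445 had 0%. The others had from 4.18% (Zfp638) to 41.8% (Zfp663) there.

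Covered Zfp genes with SUZ12 in any list differed from those without in other marks. They had a median length of 37.6 kb, against 22.8 kb for the 134 without SUZ12, and 10.4% of the body under rescue H3K9me3, against 31.3%. Rescue H3K27me3 touched 87.1% of the genes with SUZ12, 27.6% of those without and 52.3% of all genes. H3K27ac was at an end of 54.8% of the genes with SUZ12, 87.3% of those without and 58.9% of all genes. For H3K27ac the genes with SUZ12 were thus near the share over all genes, and those without SUZ12 were above it. Only 6 of the 31 stood in clusters of 3 or more, against 81 of the 134. Length moved with SUZ12 in these genes, and its part in the other differences was not tested.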

How the data were processed

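ChIP-seq peak lists of mouse embryonic stem cells were used, 10 in all, made from 26 of the 136 samples of the series. MACS2 2.1.0, Picard 2.20.7, BWA 0.7.15 and cutadapt 2.5 are listed in the submitters' processing notes, with build mm10 and without their roles, and the authors combined replicates before they deposited each list. SUZ12 lists were filtered by irreproducible discovery rate. The caller of the broad lists (H3K9me3 and H3K27me3) was not stated in the sources consulted. The deposited fold enrichment (a ratio over local background) gave peak strength, and the deposited −log10 p and −log10 q values were not used. The deposited score columns include unnamed strength values of broad regions, of which the last served only to rank regions.

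Genes were autosomal protein-coding genes of RefSeq GRCm38.p6, and start sites came from its promoter table. Overlap of 1 bp with the gene body, or a peak within 2500 bp of a gene end, was counted in Python 3.11 with pandas 2.3.3, numpy 2.4.6 and scipy 1.17.1 (figures, matplotlib 3.10.9). Overlap counting was tested on simulated regions. Clusters joined members with gaps of up to 1 Mb. Members and gene lists were chosen with earlier results of these data known. Named genes were the 3 deepest under rescue H3K9me3 per cluster, up to 12 with SUZ12 by fold, the 5 highest for H3K4me3 and for H3K27ac, 5 on each side of the rule, the listed regulators and all of the chromosome 4 cluster. Others (Zfp944, Zfp616, Zfp735 and the genes given as complete lists) were named after their values were seen. Settings varied were the overlap, window, gap, region strength, list and gene length. Lists give no replicate values and no depth, so no test was run. Protein features were not computed here.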

Additional observations from a re-analysis of the deposited data

How the results depend on the processing

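Of 38 alternative values, 29 were taken as unchanged. Among them were all counts of H3K4me3 and H3K27ac at gene ends and the number of clusters (13 with gaps of 500 or 2000 kb). A count was taken as unchanged within 1.5 times the reported value, and a share inside the 95% Wilson interval of the reported share. The median body share was judged by its relative change. With at least 50% of the body required, the number of members was 46 in place of 165, members with rescue H3K9me3 numbered 48 in place of 152, and members with H3K27me3 2 in place of 35. On the strongest rescue regions covering as much as the original list, 83 members had rescue H3K9me3 and the median body share was 0.145% in place of 25.7%. With the rescue list, 64 members had H3K27me3. With equal numbers of strongest peaks, 19 members had SUZ12 at an end in clone 442 in place of 29. Among genes of 10 to 50 kb, SUZ12 was at an end of 11.6% of members in clone 442 and 6.98% in WT, in place of 17.6% and 10.9%. No paired analysis was possible because each list combines its replicates, and for the same reason no replicate could be left out. Without depth, the absence of a region does not show the absence of a mark.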
